A study of Mus musculus with 5 samples.

Results

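Alveolar type 1 cells were described in single-cell RNA sequencing of metastasis-bearing mouse lungs. They were the cells that the authors' deposited cell table names ACT1, within its class Alveolar Cells. There were 458 type 1 cells among 23852 cells, and 22118 of these cells carried an annotation other than doublet or unknown. The lungs came from female BALB/c mice that were 6 weeks old at the start. These mice received intravenous tumor-secreted factors (TSF), a medium conditioned by pieces of mammary tumors, or control medium (CM), the same medium incubated without tumor, in 3 injections per week over 3 weeks. All mice were then given 25000 4T1 cells, a mouse mammary carcinoma line marked here with CD90.1, into the circulation, so that the CM lungs also carried metastases. Lungs were taken at day 11, at an age of 10 weeks, or at day 16, at an age of 11 weeks. Dissociated lungs of 3 mice were pooled per group. There were 5 libraries, of which TSF of day 11 gave 2, called a and b here, and each other group gave 1.

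Type 1 cells are the thin, very flat epithelial cells that line most of the alveolar surface, where gas passes between air and the capillary endothelium. Type 2 cells are the cuboidal alveolar cells that make surfactant, and they can divide and become type 1 cells after injury. Type 1 cells are wide and easily torn when lung is dissociated, so a suspension holds fewer of them than the tissue does.

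Every group was counted as 1 sample. Between TSF libraries a and b the makeup by cell class differed no more than counting noise allows (chi-square 11.0 with 11 degrees of freedom, p = 0.445), and they were counted as 1 sample by their mean. Such a test over cells cannot show that they are the same, and whether a and b came from 1 pool of mice is not given in the sources used here. No difference between groups was therefore tested, and all intervals given are 95% intervals that cover counting error within the libraries, not differences between mice. Median depth over all cells was 2236 to 2721 unique molecular identifiers (UMIs, 1 per captured RNA molecule) per cell, and library totals were 13240822 to 21451787 UMIs. Day 11 and day 16 were separate libraries from separate mice, so a difference between days and a difference between library preparations cannot be told apart. The 458 type 1 cells carried 457 distinct barcodes, 1 of which occurred in type 1 cells of more than 1 library.

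The name was not checked independently here. Ager encodes the receptor RAGE of the type 1 cell membrane, Aqp5 a water channel and Hopx a homeodomain-only cofactor, and together with Rtkn2 these 4 genes mark type 1 cells. Their levels in the type 1 cells themselves were not analysed here, and the name rests on the authors' annotation. All 4 were among the highly variable genes on which the authors clustered the cells, as were 18 of 22 genes of a longer type 1 list. That flag is a property of all cells together and is no check of the type 1 label. On GRCm38, Ager (ENSMUSG00000015452) lies on chromosome 17 at 34597862 to 34600936 (plus strand), and Hopx (ENSMUSG00000059325) on chromosome 5 at 77086988 to 77115121 (minus strand). Aqp5 (ENSMUSG00000044217) lies on chromosome 15 at 99590782 to 99594829 (plus strand), and Rtkn2 (ENSMUSG00000037846) on chromosome 10 at 67979570 to 68059740 (plus strand). Of the 458 cells, 456 fell into 3 of the authors' fine clusters, numbered 16, 81 and 106. These clusters held no cell of another annotated type and, beside type 1 cells, only 15 cells that the authors called doublets. The authors assigned cell types to clusters, so this purity largely follows from the naming and is no check of it.

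The first question was how large a part of the lung suspension the type 1 cells made up. The CM library of day 11 held 92 type 1 cells, or 2.46% of annotated cells (interval 1.99 to 3.01%). TSF library a of day 11 held 101, or 1.98% (1.61 to 2.40%), and library b held 88, or 1.83% (1.47 to 2.25%). At day 16 there were 83 in the CM library, or 2.33% (1.86 to 2.88%), and 94 in the TSF library, or 1.92% (1.55 to 2.34%). All 3 TSF values lay below both CM values, and the intervals of all 5 libraries overlapped. The share in TSF was 0.773 of that in CM at day 11 (interval 0.600 to 1.005) and 0.825 at day 16 (0.608 to 1.12). Neither ratio differed from 1 beyond counting error. Between days the share was near level, with a ratio of day 16 to day 11 of 0.945 in CM (0.694 to 1.29) and 1.01 in TSF (0.778 to 1.30).

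**Figure D1:**
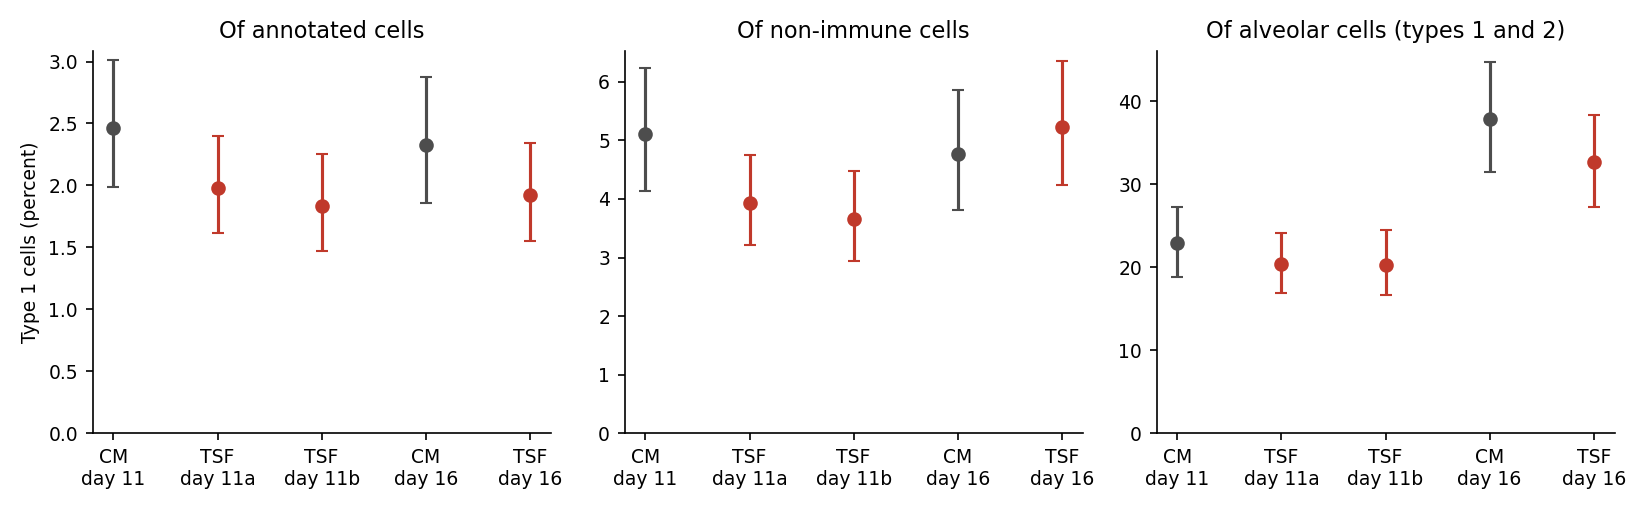
Type 1 cells as a percent of annotated cells (left), of non-immune cells (middle) and of alveolar cells of types 1 and 2 (right) in each library. Points are the shares, bars are exact 95% intervals of counting error, CM is grey and TSF is red. Among annotated cells the shares stay between 1.83% and 2.46%, while among alveolar cells they rise from 20.3 to 22.9% at day 11 to 32.6 to 37.9% at day 16.

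Counted against annotated cells, the share of type 1 cells moved less than that of most other cell types. Over the 4 groups its highest value was 1.29 times its lowest. Among the 12 cell types with at least 50 cells in every library, this was the 3rd smallest range, after myofibroblasts (1.12) and fibroblasts (1.18). The widest ranges were those of type 2 cells (2.18) and neutrophils (7.16). This order is a description of these libraries and was not tested. It holds for shares of annotated cells, of which neutrophils were 28.7% in the TSF library of day 16. That lowers the shares of the other types there, and the order was not repeated without granulocytes.

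Shares depend on what they are counted against, and for type 1 cells the choice mattered at day 16. The TSF library of day 16 held 1407 neutrophils, which were 28.7% of its annotated cells, against 203 and 5.69% in the CM library. With granulocytes left out of the denominator, type 1 cells made up 2.71% of the TSF cells and 2.48% of the CM cells of day 16. The ratio turned from 0.825 to 1.09 (interval 0.806 to 1.49), and both values lay within counting error of 1. Among non-immune cells the type 1 share was 5.23% against 4.76% at day 16, a ratio of 1.1 (0.809 to 1.49). At day 11 it was 5.11% in CM against 3.93% (a) and 3.66% (b) in TSF, a ratio of 0.742 with an interval of 0.576 to 0.964 that stayed below 1. With all cells of the table as the denominator, doublets included, the ratio at day 11 was 0.760 (0.590 to 0.988). Whether the interval of day 11 included 1 therefore changed with the denominator, and at day 16 the direction changed too. Within TSF, the share among non-immune cells was 1.38 times as high at day 16 as at day 11 (interval 1.06 to 1.77), whereas within CM the ratio was 0.932 (0.684 to 1.27).

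**Figure D2:**
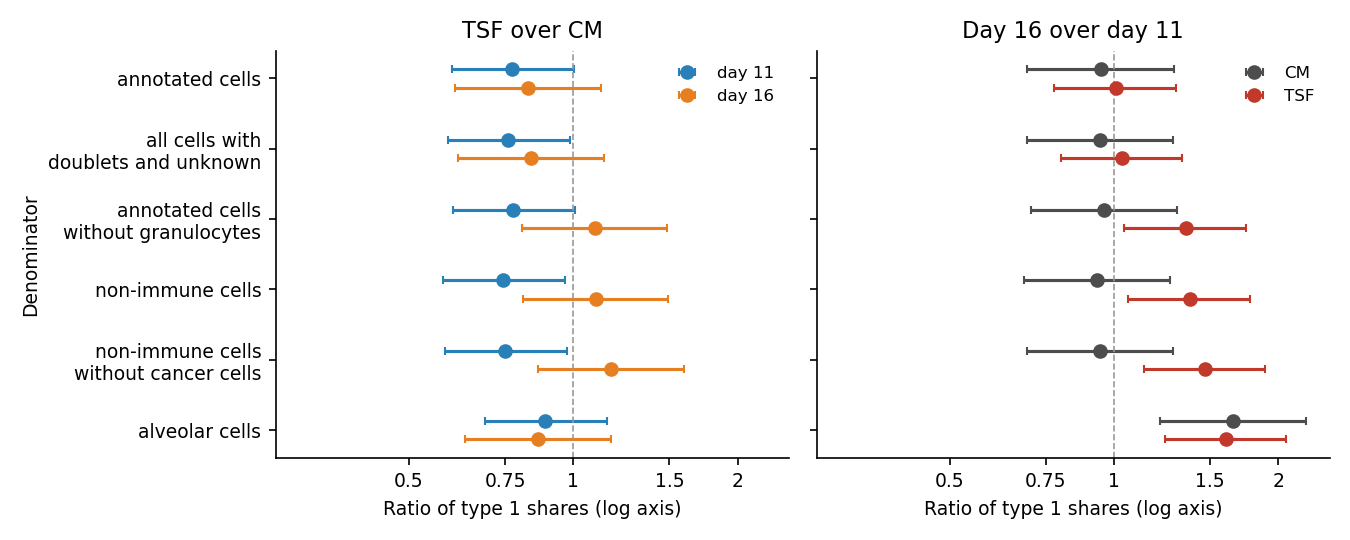
Ratios of type 1 shares under 6 denominators, for TSF over CM at day 11 and day 16 (left) and for day 16 over day 11 within CM and TSF (right). Points are ratios on a log axis, bars are exact conditional 95% intervals of counting error, and the dashed line marks a ratio of 1. The day 16 ratio of TSF over CM lies at 0.825 among annotated cells and at 1.09 to 1.17 without granulocytes, among non-immune cells and among these without cancer cells, but at 0.861 among alveolar cells.

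Within the alveolar epithelium the balance of type 1 and type 2 cells differed between days. There were 29.7 type 1 cells per 100 type 2 cells in the CM library of day 11, and 25.6 and 25.5 in TSF libraries a and b. At day 16 there were 61.0 in the CM library and 48.5 in the TSF library. Both values of day 16 lay above all 3 of day 11. The number of type 1 cells per type 2 cell was 2.06 times as high at day 16 in CM (interval 1.41 to 2.99) and 1.90 times in TSF (1.40 to 2.57). Among annotated cells, the type 2 share at day 16 was 0.460 of that at day 11 in CM (0.373 to 0.564). In TSF it was 0.532 (0.451 to 0.623). The type 1 share had ratios near 1 with this denominator. With non-immune cells as the denominator, the type 1 ratio of day 16 to day 11 was 0.932 in CM (0.684 to 1.27). In TSF it was 1.38 (1.06 to 1.77). The type 2 share was not computed with that denominator, so how much each cell type moved in TSF was not tested. TSF and CM differed less within a day, with 0.861 times as many type 1 cells per type 2 cell in TSF at day 11 (0.644 to 1.16) and 0.794 times at day 16 (0.541 to 1.17).

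Type 1 cells share a basement membrane with capillary endothelium, and their numbers were also set against those of the stroma. There were 10.8 type 1 cells per 100 endothelial cells in CM at day 11, and 8.02 and 7.25 in TSF libraries a and b. At day 16 there were 9.56 in CM and 14.4 in TSF, the highest of the 5 values. The ratio of TSF to CM was 0.710 at day 11 (interval 0.544 to 0.933) and 1.51 at day 16 (1.09 to 2.09), so that both intervals excluded 1 on opposite sides. The endothelial share of annotated cells was 13.3% in the TSF library of day 16, against 22.9 to 25.2% in the other 4 libraries. Neutrophils made up 28.7% of annotated cells in that TSF library, which lowers the shares of other types. An endothelial share without granulocytes was not computed. Against fibroblasts the type 1 cells kept nearer to level, with 27.3 per 100 fibroblasts in CM at day 11 and 20.8 to 22.0 in the other 4 libraries. The ratio of TSF to CM per fibroblast was 0.776 at day 11 (0.583 to 1.04) and 0.945 at day 16 (0.674 to 1.33).

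The UMI content of type 1 cells spanned a wide range in every library. The lowest, median and highest values were 830, 3642 and 8827 UMIs in CM at day 11. They were 839, 3367 and 9045 UMIs in TSF library a, and 809, 3677 and 8434 UMIs in library b. At day 16 they were 852, 3567 and 12448 UMIs in CM, and 800, 2703 and 12813 UMIs in TSF. The median of the TSF library of day 16 was the lowest, and the other 4 medians lay within 310 UMIs of each other. The ratio of medians of TSF to CM was 0.967 at day 11 and 0.758 at day 16. Median detected genes per type 1 cell were 1725 in CM and 1642 and 1705 in TSF libraries a and b at day 11, and 1493 in CM and 1400 in TSF at day 16.

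The TSF library of day 16, which had the lowest median, also held the largest share of type 1 cells in fine cluster 106. Type 1 cells in this cluster had a median of 1150 UMIs and 697 genes over all libraries, against 4860 UMIs in cluster 16 and 3445 UMIs in cluster 81. Its cells were 30 of 94 type 1 cells in the TSF library of day 16 (31.9%, interval 22.7 to 42.3%), and 20.5% in CM of the same day. At day 11 they were 22.8% in CM and 15.8% and 15.9% in TSF libraries a and b. This cluster was left out because its median UMIs were the lowest, a choice made after the data were seen. Medians then rise by construction, most where its share is largest. Without it, the medians at day 16 were 4291 UMIs in TSF and 4589 UMIs in CM, a ratio of 0.935. At day 11 they were 4378 UMIs in CM, and 3669 and 3949 UMIs in TSF libraries a and b. The ratio of TSF to CM at day 11 thereby moved away from 1, from 0.967 to 0.870. Cluster 106 also stood low in mitochondrial RNA, with a median of 1.42% of UMIs against 2.37% in cluster 16 and 2.22% in cluster 81. It was below both clusters in each library, but in CM of day 16 it was close to cluster 16 (2.25% against 2.28%). Leaving the cluster out, the type 1 share of annotated cells was 0.841 of CM in TSF at day 11 and 0.707 at day 16 (interval 0.494 to 1.01).

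The type 1 cells of the libraries were spread unevenly over the authors' fine clusters. Cluster 81 held 32.6% of type 1 cells in CM at day 11 (interval 23.2 to 43.2%), and 61.4% and 59.1% in TSF libraries a and b. At day 16 it held 9.64% in CM (8 cells) and 18.1% in TSF (17 cells). Both libraries of day 16 lay below all 3 of day 11, and on each day TSF lay above CM. The ratio of TSF to CM was 1.85 at day 11 (1.23 to 2.87) and 1.88 at day 16 (0.767 to 5.02). The ratio of day 16 to day 11 was 0.296 in CM (0.117 to 0.660) and 0.300 in TSF (0.169 to 0.501). Cluster 16 went the other way, with 44.6% in CM and 21.8% and 25% in TSF at day 11, and 68.7% in CM and 50.0% in TSF at day 16. Among cells with at least 2000 UMIs, a limit applied to the clusters after the data were seen, cluster 81 still held 34.4% in CM and 63.5% in TSF (mean of a and b) at day 11, and 8.62% and 22.8% at day 16. The genes that separate these clusters were not analysed here. A move of cells between clusters and a change of those genes within the same cells cannot be told apart, and with 1 sample per group neither can a treatment and a library.

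**Figure D3:**
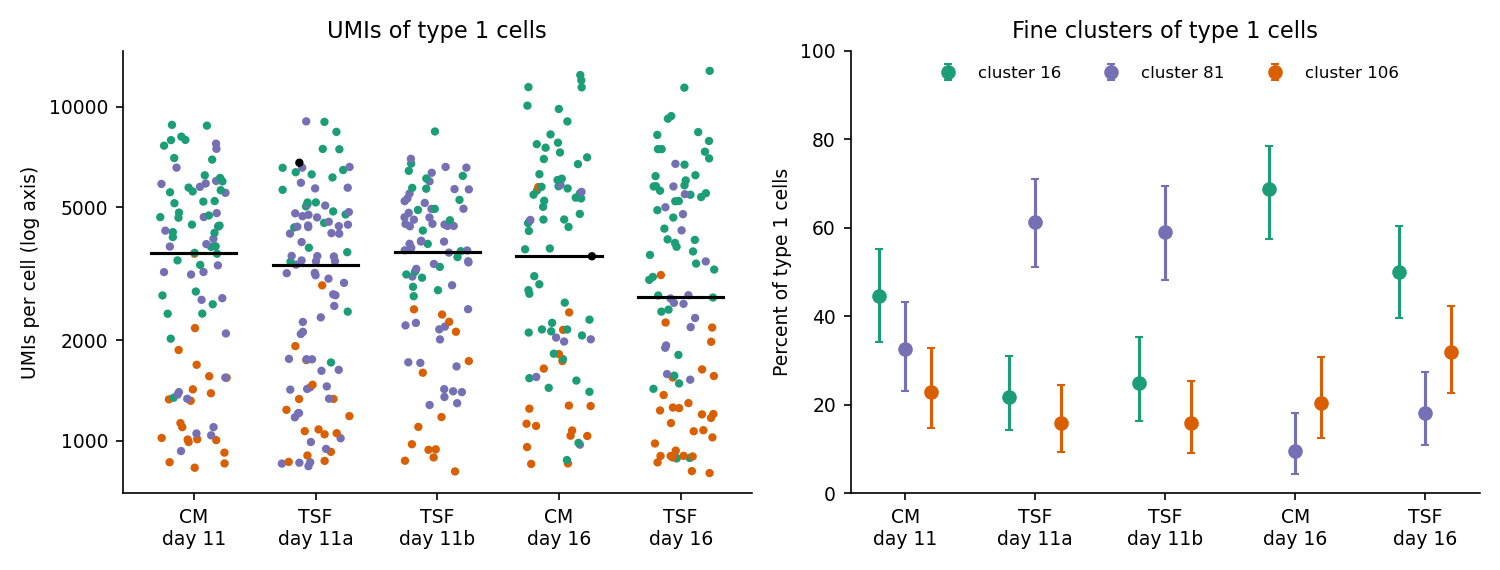
Left, UMIs of each type 1 cell on a log axis by library, with the library's median as a black line. Right, the percent of each library's type 1 cells in the authors' fine clusters 16 (green), 81 (purple) and 106 (orange), with exact 95% intervals of counting error. The 2 cells outside these clusters are black in the left panel. Cells of cluster 106 lie mostly in the lower part of every library, and cluster 81 holds 59.1 to 61.4% of type 1 cells in the TSF libraries of day 11 but 9.64% and 18.1% at day 16.

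The authors' second clustering took type 1 cells together with type 2, club and ciliated cells and divided type 1 cells into 12 subclusters, of which 7 held at least 20 cells. Subcluster A.16 held 24 of 83 type 1 cells in CM at day 16 and 9 of 94 in TSF at day 16, but only 1, 1 and 2 cells in CM, TSF a and TSF b at day 11. Subclusters A.32 and A.34 together held 16 cells in CM and 45 and 31 cells in TSF libraries a and b at day 11. At day 16 they held no cell in CM and 2 cells in TSF. Of 83 cells, a count of 0 allows a share of up to 3.61% for each by the limit of 3 counts. Subcluster A.1 held 9.90 to 20.7% of type 1 cells at day 11 and 37.2 to 42.2% at day 16. Distances between libraries were the summed absolute differences of subcluster shares divided by 2, where 100% would mean no shared subcluster. By this measure the type 1 cells of TSF libraries a and b lay 18.4% apart. CM lay 31.8% and 27.7% from TSF libraries a and b at day 11 and 25.6% from TSF at day 16, and libraries of different days lay 42.9 to 71.4% apart. By the first, fine clusters the days did not separate in this way. There CM of day 11 lay 14.5% from TSF of day 16, nearer than CM lay to TSF on either day (29.8% and 26.5% at day 11, 19.9% at day 16). In the second clustering, type 2 cells lay 29.7 to 39.9% apart between days, 12.4% apart between TSF libraries a and b, and 27.8% apart between CM and TSF of day 16. Such distances grow with counting noise, and libraries held 83 to 101 type 1 cells against 136 to 395 type 2 cells. The distances of the cell types are therefore not directly comparable.

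Type 1 cells were then compared with type 2 cells of the same library, which share library preparation, sequencing and ambient RNA. Type 1 cells had fewer UMIs than type 2 cells in 5 of 5 libraries. The difference of log2 medians averaged -0.67 ± 0.31 (SD, n = 4 samples). Mitochondrial genes gave a median of 2.08 to 2.37% of UMIs in type 1 cells and 3.37 to 3.93% in type 2 cells, and the value of type 1 cells was lower in every library. The difference averaged -1.47 ± 0.14 percentage points (SD, n = 4 samples). With 4 samples the exact two-sided sign-flip permutation test could not go below p = 0.13, the value found for both measures (0.188 after Benjamini-Hochberg adjustment over 12 comparisons). Type 1 cells had more UMIs than endothelial cells in 5 of 5 libraries (log2 difference 0.15 to 0.78). Compared with fibroblasts they had more UMIs at day 11 (0.04 to 0.11) and fewer at day 16 (-0.19 in CM and -0.33 in TSF). Mitochondrial percent was lower in type 1 than in endothelial cells in 5 of 5 libraries, with differences of -0.454 to -1.15 percentage points. Against fibroblasts it was lower in 4 of 5 libraries and 0.112 points higher in TSF library b.

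Detected genes depend on depth, so they were compared in cells of 3000 to 5000 UMIs, a window chosen after the data were seen. There a type 1 cell showed a median of 1827 genes in CM at day 11, and 1909 and 1825 in TSF libraries a and b. At day 16 it showed 1948 in CM (12 cells) and 1737 in TSF (17 cells). Type 2 cells of the same UMI range showed 1287 to 1442 genes, below type 1 cells in 5 of 5 libraries. The difference of log2 medians was 0.43 ± 0.09 (SD, n = 4 samples, exact sign-flip permutation p = 0.13, adjusted 0.188), and it was also above 0 in windows of 2000 to 3000 and of 5000 to 8000 UMIs. Against endothelial cells of the same window the difference was 0.02 ± 0.08, with 1 library below 0. Against fibroblasts it was 0.10 ± 0.05, above 0 in every library. Over all cells, without matching, type 1 cells had more genes than type 2 cells at day 11 (log2 difference 0.25 to 0.27) and fewer at day 16 (-0.32 and -0.29).

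**Figure D4:**
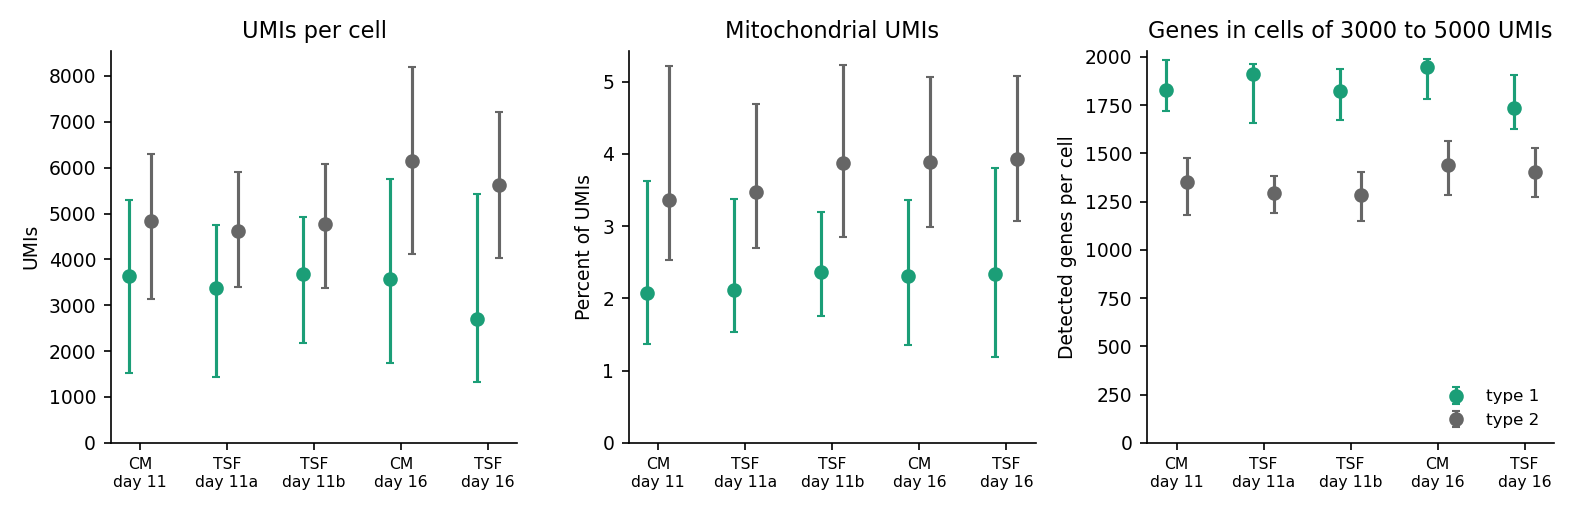
Medians of type 1 (green) and type 2 cells (grey) by library for UMIs per cell, percent of UMIs from mitochondrial genes, and detected genes in cells of 3000 to 5000 UMIs. Bars span the middle of the cells, from the 25th to the 75th percentile. In each of the 5 libraries type 1 cells lie lower in UMIs and mitochondrial percent and higher in genes at matched UMIs.

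Cells that the authors called doublets were looked at because a pair of cells with 1 type 1 member is lost from the counts. Doublet type D17 made up 13 of the 15 doublets in fine clusters 16, 81 and 106. These were 13 of 68 D17 cells, and the other D17 cells lay in other fine clusters. It had 18 cells in CM and 17 and 24 in TSF libraries a and b at day 11, and 5 in CM and 4 in TSF at day 16. All 3 libraries of day 11 lay above both of day 16. With all 68 D17 cells counted as type 1 cells, a choice made after the data were seen, the ratio of TSF to CM was 0.789 at day 11 (interval 0.626 to 0.999) and 0.812 at day 16 (0.603 to 1.1). The ratio of day 16 to day 11 became 0.841 in CM (0.628 to 1.12) and 0.866 in TSF (0.676 to 1.1).

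Values per gene were at hand for the cancer cells of day 16 alone, and they show where type 1 genes were seen outside type 1 cells. Ager had a UMI in 1 of 139 cancer cells of the TSF library (0.719%, interval 0.0182 to 3.94%) and in 0 of 29 of the CM library, which allows up to 10.3% by the limit of 3 counts. Hopx was seen in 8 and 0 cancer cells, Aqp5 in 7 and 1, and Rtkn2 in 14 and 3. These cancer cells had median depths of 26615 UMIs in TSF and 27679 UMIs in CM, which were 9.85 and 7.76 times those of the type 1 cells of the same libraries. Over the 22 type 1 genes the median share of cancer cells with a UMI was 2.88% in TSF and 3.45% in CM, and over 12 type 2 genes it was 0% in both. Of these 12 genes, 6 were in no cancer cell, but Abca3 was in 42 of 139 and 11 of 29 cancer cells and Etv5 in 28 and 7. Of the 22 type 1 genes, Igfbp2, Spock2 and Col4a4, named after their values were seen, were in no cancer cell. Emp2, a tetraspan membrane protein gene, and Krt7, a simple epithelial keratin gene, were in 131 and 85 of 139 TSF cancer cells. No cell type that lacks these genes was at hand as a background for free RNA, and its part in these shares was not tested. Of the pan-epithelial genes, Krt18 was in 138 of 139 TSF and 28 of 29 CM cancer cells, and Krt8 in 137 and 29. Epcam, an epithelial adhesion gene, was in 95 of 139 and 8 of 29 cancer cells. Nkx2-1, a lung epithelial transcription factor gene also named after its value was seen, was in 2 and 0. Over 7 pan-epithelial genes the median was 38.1% and 27.6%, and over 7 genes of the transitional state between type 2 and type 1 cells it was 64.7% and 72.4%. Krt8 and Krt19 were in both lists, and no share over all genes was set beside these medians. The values describe 4T1 cells alone, and whether they reflect an alveolar state was not tested.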

How the data were processed

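Per the study's methods, 5' 10x libraries were mapped to GRCm38.p6, to which CD90.1 had been added, corrected for ambient RNA with a customised SoupX, clustered and annotated by hand. The submitters' processing notes also name Cell Ranger and Seurat 4.1.0. The authors deposited, per cell, counts of UMIs and of detected genes after that correction, the percent of mitochondrial UMIs, clusters, and UMAP coordinates, a score without unit that was not used. The lowest values were 800 UMIs and 202 genes, and the highest mitochondrial value was 9.99%. A deposited table of cancer cells gave the number of cells with a UMI and the mean level per gene; its fold changes and p-values, and the authors' gene set scores, were not used. Cells of 2 further libraries, which match no sample here, were left out.

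Shares have exact Clopper-Pearson intervals, ratios of shares exact conditional intervals, and ratios of cell numbers conditional odds ratio intervals. TSF libraries a and b entered as their mean, with intervals from pooled counts. The ratio interval was tested on simulated data with known ratios and held them at least as often as its level states. The simulated shares were small, like those of annotated cells. The interval treats counts as Poisson and was not tested at the larger shares within alveolar cells or within type 1 cells. Medians of type 1 and other cells were compared within libraries by exact sign-flip permutation over 4 samples. A count of 0 allows a share of up to 3 counts of the total. Depths were not thinned to 1 number of UMIs, because no matrix of single cells was used. Genes were named from fixed lists of 22 type 1, 12 type 2, 7 pan-epithelial and 7 transitional genes, with all 4 leading markers and otherwise up to 5 of highest mean per list, and 4 genes outside this rule were named after their values were seen. Tests, lists and members were chosen with earlier results of these data known. Gene positions came from GENCODE M21. Computations ran in Python 3.11.15 with scipy 1.17.1, pandas 2.3.3 and numpy 2.4.6, and figures in matplotlib 3.10.9.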

Additional observations from a re-analysis of the deposited data

Results flagged for a closer look

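Flagged here were 6 measures of type 1 cells for which both TSF libraries of day 11 lay on one side of CM and the TSF library of day 16 on the other side. They are not a full list, since the shares of type 1 cells in subclusters A.14 and A.29 turned in the same way. Not all measures turned in this way. TSF lay below CM on both days for the shares of annotated, of all and of alveolar cells. It also did so for type 1 cells per type 2 cell (ratios 0.861 and 0.794) and per fibroblast (0.776 and 0.945). With 1 sample in each group, no test of the difference between days was made. The log2 ratio of TSF to CM at day 16 minus that at day 11 was 0.50 for the share of annotated cells without granulocytes, 0.57 for the share of non-immune cells and 0.64 for the share of non-immune cells without cancer cells. It was 1.09 for type 1 cells per endothelial cell and 0.71 per alveolar macrophage. These 5 measures share their counts of type 1 cells and are not independent of each other. There were 43.2 and 39.3 type 1 cells per 100 alveolar macrophages in the TSF libraries (a, b) and 52.0 in CM at day 11, against 53.4 in TSF and 41.1 in CM at day 16. The share of type 1 cells in fine cluster 106 gave a difference of 1.16, from 15.8% and 15.9% in TSF against 22.8% in CM at day 11 to 31.9% against 20.5% at day 16.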

How the results depend on the processing

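The ratio of TSF to CM at day 11 stayed below 1 under all alternatives tried, from 0.742 to 0.889. It was 0.744 without library a and 0.803 without library b. At day 16 it was above 1 without granulocytes, among non-immune cells and among these without cancer cells, where it reached 1.17, and below 1 under the others, with 0.861 among alveolar cells. The ratio of day 16 to day 11 moved in CM to 1.66 among alveolar cells. In TSF it moved to 1.36 without granulocytes, 1.38 among non-immune cells, 1.47 without cancer cells as well and 1.6 among alveolar cells, and it was 0.972 to 1.05 with library a or b left out. The cause was not tested. The difference of detected genes between type 1 and type 2 cells, -0.03 by log2 medians, turned to 0.0069 with means and to 0.34 among cells with at least 2000 UMIs.

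Without cluster 106, the ratio of median UMIs became 0.870 (TSF to CM, day 11), 0.935 (TSF to CM, day 16) and 1.13 (day 16 to day 11, TSF), and that of median genes 0.924 (TSF to CM, day 11), 1.05 (days, CM) and 1.1 (days, TSF). Among cells with at least 2000 UMIs, the ratio of median UMIs became 0.929 (TSF to CM, day 16), 1.16 (days, CM) and 1.13 (days, TSF). That of median genes became 0.929 and 1.01 (TSF to CM, days 11 and 16), 1.03 (days, CM) and 1.12 (days, TSF), and that of median mitochondrial percent 1.20 (TSF to CM, day 16) and 1.19 (days, TSF). Both settings were chosen after the data were seen. No paired analysis was possible because each group held 1 sample and the replicate letters occur in 1 group alone, which concerns comparisons between groups and not those of cell types within a library. With 83 to 101 type 1 cells per library, the interval left the ratio of day 11 anywhere from 0.600 to 1.005 by counting error alone.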
